A study of Mus musculus with 8 samples.

Results

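The nuclear genes of the mitochondrial respiratory chain were taken from the corpus callosum libraries by their symbols. A gene was included when its symbol named a subunit of NADH dehydrogenase (Nduf with a, b, c, s or v and a number), succinate dehydrogenase (Sdha to Sdhd), the cytochrome bc1 complex (Uqcr), cytochrome c oxidase (Cox4 to Cox8) or ATP synthase (Atp5). Pseudogenes were left out, and the mean over the libraries had to reach 5 CPM (reads scaled to the library size). Of the 25239 genes measured, 86 had a matching symbol and 77 reached that level. They comprised 37 genes of complex I, 4 of complex II, 8 of complex III, 11 of complex IV and 17 of complex V. All 77 passed the filter for testing, a mean of at least 0.1 CPM, which 18123 genes passed.

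The 8 libraries were polyadenylated RNA of the corpus callosum from male mice of the C57BL/6 strain (C57BL/6J in the study's methods) aged 8 to 12 weeks, 4 labelled wild type (WT) and 4 labelled TRPA1-KO, a global deletion of the cation channel TRPA1. Each label had 1 sham-operated mouse at day 14 and 1 mouse at each of days 7, 10 and 14 after bilateral common carotid artery stenosis (BCAS), in which metal microcoils narrow both carotid arteries and lower cerebral blood flow. Sham mice were operated on without coils. Each library came from 1 mouse, so the days served as the replicates of an operated group, and a difference between any 2 libraries has no replicate check.

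The libraries held 7896071 to 12952093 reads assigned to genes. Trpa1 went against the labels: the sham library and the BCAS libraries of days 7, 10 and 14 held 1, 0, 0 and 0 reads with the label WT, and 10, 11, 3 and 7 with the label TRPA1-KO, so WT and KO are used below as labels. These are counts per gene, which do not show whether the reads fell in the deleted part, and an exchange of labels was not tested. A count of 0 allows up to 3 reads, or 0.267 to 0.378 CPM in these 3 libraries. Summed markers of oligodendrocytes lay between 12595 and 16844 CPM, and all 9 were detected in this myelinated tract. The libraries also held neuronal RNA, at 9123 to 11864 CPM summed over 10 markers, and striatal markers at 868 to 2285 CPM. Microglial markers summed to 929 CPM in the WT BCAS library of day 7 and to 317 to 558 CPM in the other 7.

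The respiratory chain sits in the inner mitochondrial membrane. Complexes I and II take electrons from NADH and succinate, complex III passes them to cytochrome c, and complex IV passes them on to oxygen. Complexes I, III and IV pump protons, and complex V, the ATP synthase, uses the proton gradient to make ATP. Most subunits are encoded in the nucleus, while a smaller set is encoded in mitochondrial DNA and was not analysed here. Neurons depend strongly on oxidative phosphorylation, and myelinated axons of the white matter draw on it along their length.

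Nuclear respiratory chain genes are a textbook example of genes that share promoter motifs, among them those of NRF1, of the ETS family factor GABP and of YY1. A RefSeq (GRCm38.p6) promoter, 250 bases before to 50 after the start, was available for 64 of the 77 members. Where several were listed for a gene, the first by chromosome position was used. The letters GCATGCGC of the NRF1 motif, on either strand, were present in 10 of the 64 (15.6%) and in 2.78% of 27025 promoters of the same length. CCGGAAG, the ETS letters, was present in 17 (26.6%, against 9.08%). AAGATGGC, the YY1 letters, was present in 10 (15.6%, against 2.86%). At least 1 of the 3 was present in 31 promoters (48.4%, against 13.7%). The YY1 letters were in 7 promoters of complex I, in 3 of complex V and in 0 of the other complexes. The other complexes had fewer promoters available, and a difference between complexes was not tested. The promoters of 3 genes that hold both the NRF1 and the ETS letters are shown, with the matched letters in capitals. They were chosen after the values were seen. Atp5k and Uqcr11 had the widest gaps between the KO BCAS libraries of day 7 and day 14, and Sdhb had almost none. Whether the letters go with the gap was not tested.
Atp5k, chr5:108434350-108434649, minus strand: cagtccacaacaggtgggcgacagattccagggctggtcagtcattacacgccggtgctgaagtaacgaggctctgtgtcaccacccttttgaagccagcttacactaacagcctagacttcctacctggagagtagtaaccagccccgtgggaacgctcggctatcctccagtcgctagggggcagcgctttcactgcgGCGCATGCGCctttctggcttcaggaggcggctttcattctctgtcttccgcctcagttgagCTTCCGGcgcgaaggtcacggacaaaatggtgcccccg
Uqcr11, chr10:80406772-80407071, minus strand: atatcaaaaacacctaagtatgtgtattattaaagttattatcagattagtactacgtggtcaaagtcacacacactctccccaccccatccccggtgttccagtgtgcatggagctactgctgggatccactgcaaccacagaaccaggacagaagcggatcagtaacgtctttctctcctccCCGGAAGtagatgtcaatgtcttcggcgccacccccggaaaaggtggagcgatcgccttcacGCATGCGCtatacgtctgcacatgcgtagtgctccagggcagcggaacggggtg
Sdhb, chr4:140961021-140961320, plus strand: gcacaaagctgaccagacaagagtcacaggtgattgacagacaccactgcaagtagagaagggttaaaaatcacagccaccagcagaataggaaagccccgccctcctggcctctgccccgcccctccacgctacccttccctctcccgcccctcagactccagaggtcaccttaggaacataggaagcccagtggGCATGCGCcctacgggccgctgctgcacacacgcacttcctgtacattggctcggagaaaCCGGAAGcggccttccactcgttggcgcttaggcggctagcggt
In Atp5k the NRF1 letters matched on both strands, in runs that overlap and begin 50 and 48 bases before the start, and the ETS letters began at base 13 after it. The NRF1 run began 4 bases before the start in Uqcr11 and 54 before it in Sdhb. The ETS run began 66 bases before the start in Uqcr11 and at base 7 after it in Sdhb.

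Summed over the 77 members, respiratory chain transcripts made up 0.784% to 0.919% of the CPM of a library. Per kilobase of the principal annotated transcript, the median level over the 8 libraries was 86.5 CPM per kb, and members ranged from 11.5 to 520. Complex IV had the highest median (157 CPM per kb), followed by complex V (115), complex III (98.9), complex I (57.8) and complex II (56.6). The highest member of complex IV was Cox4i1, the common form of subunit 4, at 520 CPM per kb. In complex V it was Atp5b, the catalytic beta subunit, at 496 CPM per kb. Ndufa4 led complex I at 269 CPM per kb. It is named as a subunit of complex I but is now known to belong to complex IV. Uqcrh, the hinge protein, led complex III at 153 CPM per kb, and Sdha, the flavoprotein that oxidizes succinate, led complex II at 125 CPM per kb.

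The lowest members were Ndufb2 of complex I at 11.5 CPM per kb, Sdhc of complex II at 17.6, Uqcrfs1 of complex III at 60.8, Cox7a2l of complex IV at 89.2 and Atp5g1 of complex V at 24.8. The values of Ndufb2 and Atp5g1 rest on uncertain lengths, since their principal transcripts span 455 to 4371 bases and 596 to 4715 bases. Sdhc is a membrane anchor, Uqcrfs1 is the Rieske iron-sulfur protein, and Cox7a2l is known for its part in respiratory supercomplexes and not as a core subunit. Among the 3 genes that encode the same mature c subunit of the ATP synthase ring, the level was 152 CPM per kb for Atp5g3, 91.0 for Atp5g2 and 24.8 for Atp5g1.

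Isoforms known from muscle and other tissues were below the limit of 5 CPM. Cox4i2, the alternative form of subunit 4, had a mean of 1.08 CPM (range 0.534 to 1.60), and Cox4i1 was 346 times higher per kilobase. Cox7a1 had a mean of 1.22 CPM and Cox8b of 0.115 CPM, against 67.1 for Cox7a2 and 259 for Cox8a. Cox6a2, at 4.56 CPM, was the first symbol below the limit of 5 CPM, and Cox6a1 stood at 268 CPM. Ndufa4l2 was at 2.40 CPM. The member nearest above the limit was Ndufb4c, at 12.1 CPM, which shares 390 bases at 100% identity with Ndufb4, so that their reads could be split in either direction by the counting. Such a stretch, at least 200 bases at 95% identity in another annotated gene, was present for 23 of the 77 members. An exon of a gene on the opposite strand overlapped 25 members. Reads from the shared stretch of such a pair cannot be told apart by strand, since the kit does not mark it.

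The coefficient of variation of a member's CPM over the 8 libraries had a median of 8.37% and ranged from 3.73% for Ndufa9 to 23.9% for Atp5k. Counting error alone would give a median of 3.92%, and the observed value was 2.26 times the counting value in the median member. For Ndufa7 the ratio was 1.0, so that no spread beyond counting was detectable. It was 5.93 for Atp5b, the member with the most reads. The highest library was less than 1.5 times the lowest for 68 of the 77 members. Over all 7597 genes with a mean of 25 to 1000 CPM, a range that holds 76 of the members, the median coefficient of variation was 7.59%.

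**Figure D1:**
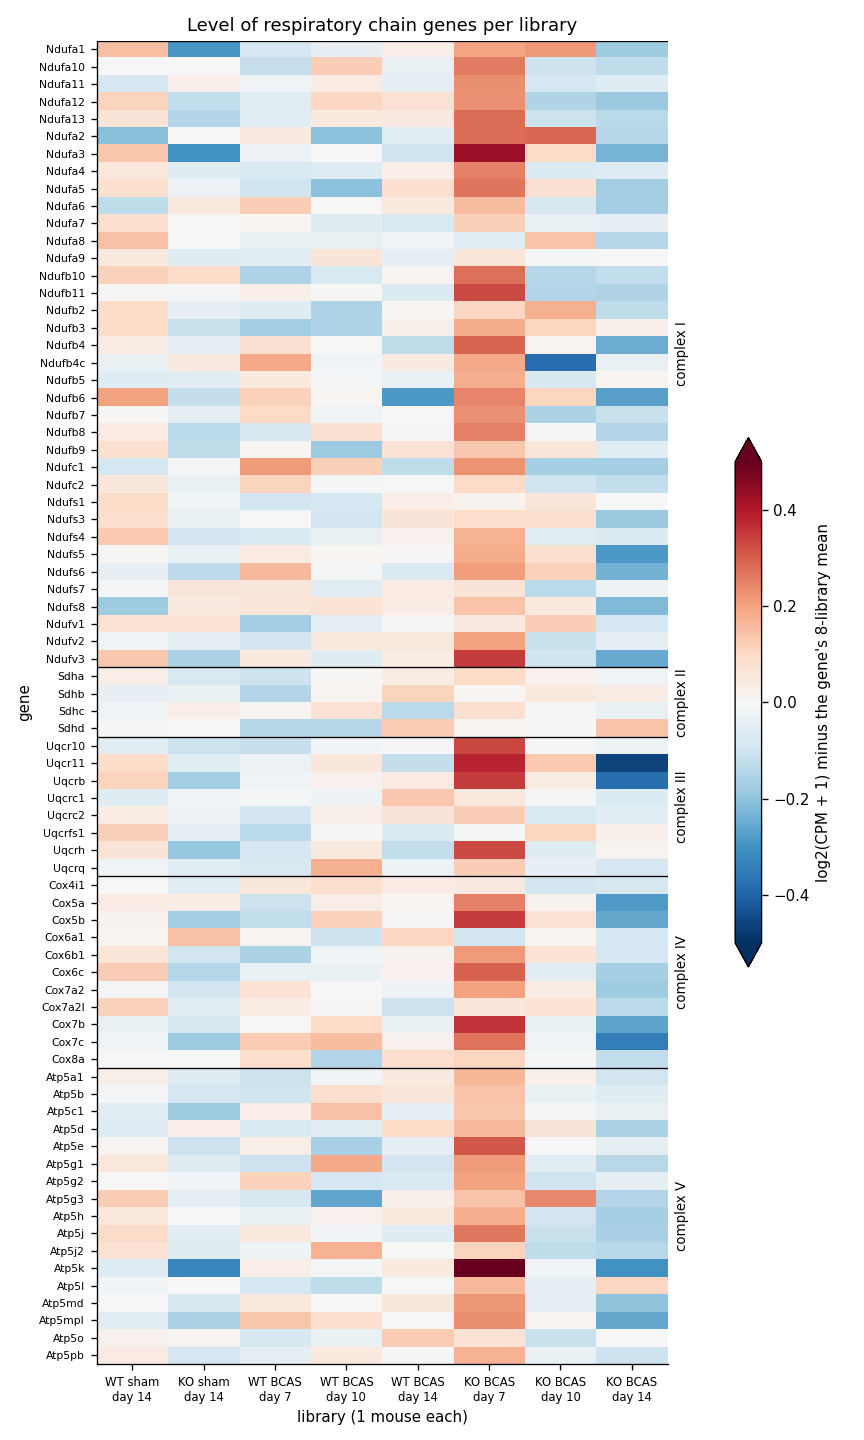
Each row is 1 member, grouped by complex, with 76 of the 77 drawn, and each column is 1 library (1 mouse). Colour gives log2(CPM + 1) minus the gene's mean over the 8 libraries, and values beyond 0.5 take the end colours. The column of KO BCAS day 7 is red for most members and that of KO BCAS day 14 is blue for most.

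In 2 libraries with the same label and operation, most members lay on the same side of their own mean. In the KO BCAS library of day 7, 74 of the 77 members were above their own 8-library mean on the log2(CPM + 1) scale, with a median deviation of 0.19, and 57 had their highest level there. In the KO BCAS library of day 14, 8 members were above their mean, the median deviation was -0.12, and 33 had their lowest level there. In the other 6 libraries the median deviation lay between -0.05 and 0.03. The KO BCAS library of day 10 had a median of -0.01, the 3 WT BCAS libraries of days 7, 10 and 14 had -0.03, -0.00 and 0.01, and the sham libraries had 0.03 (WT) and -0.05 (KO). Counts were one-sided in the sham libraries too, with 51 members above their mean in WT and 18 in KO, and lay between 32 and 45 in the other 4. Summed over members, the level was 9321 CPM in KO BCAS day 7 and 7776 CPM in KO BCAS day 14, with the other 6 libraries between 8035 and 8491 CPM. For 59 members the lower bound of the 95% Poisson interval of the KO BCAS day 7 value, which covers counting error only, was above the mean of the other 7 libraries. This count was not set beside one over all genes or one for another library, so it does not mark these members out. The 3 BCAS libraries averaged 8462 CPM with an SD of 787 for the label KO and 8329 with an SD of 188 for the label WT (n = 3 each).

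Neuronal markers were also unequal between these 2 KO libraries, at 11595 CPM on day 7 and 9740 on day 14, with 8 and 2 of the 10 markers above their 8-library mean. Astrocyte markers went the other way, at 3711 and 4986 CPM, as did microglial markers, at 317 and 444 CPM, oligodendrocyte markers, at 12595 and 14271 CPM, and striatal markers, at 965 and 1526 CPM with 0 and 9 of 9 above their mean. The highest neuronal sum, 11864 CPM with 9 of 10 markers above their mean, was in WT BCAS day 14, where the members' median deviation was 0.01. By median deviation, the measure used for the members, neuronal markers were highest in KO BCAS day 7 (0.15), followed by WT BCAS day 14 (0.11). They were at -0.08 in KO BCAS day 14 and lowest in WT BCAS day 7 (-0.16). The part of these cell types in the members' levels was not tested. In whole tissue, fewer cells of a type and less RNA per cell cannot be told apart.

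**Figure D2:**
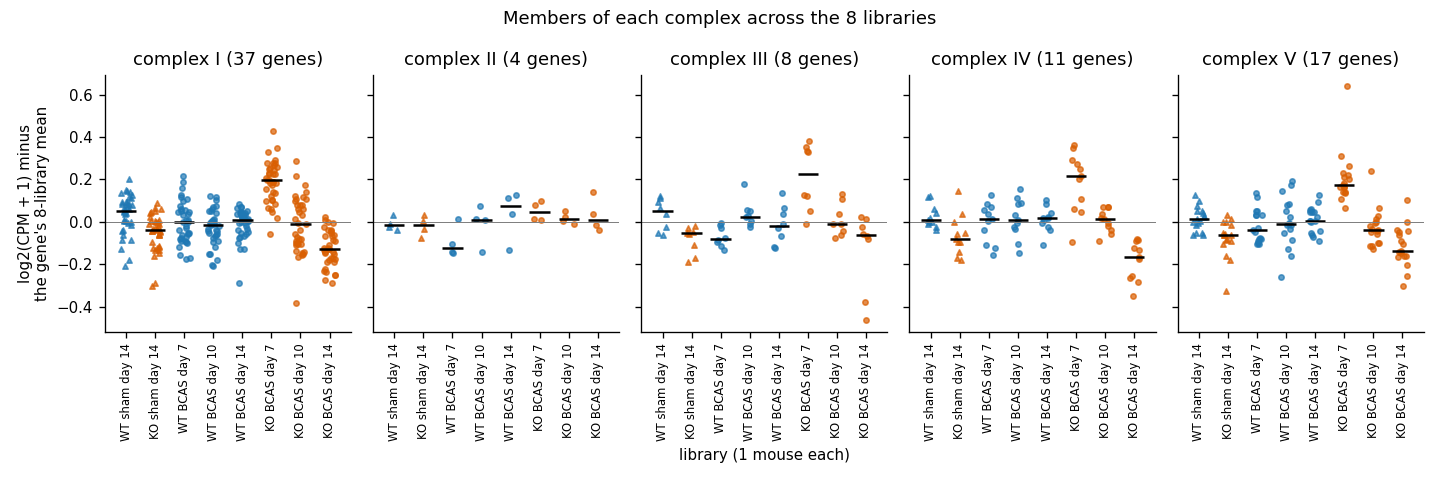
Each point is 1 member in 1 library (1 mouse), given as log2(CPM + 1) minus the gene's 8-library mean, with triangles for sham, circles for BCAS, blue for the label WT and orange for TRPA1-KO; black bars are medians. Complexes I, III, IV and V have medians of 0.17 to 0.23 in KO BCAS day 7, and complex II has 0.05.

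By their median deviations, complexes I, III, IV and V were each highest in the KO BCAS library of day 7, and all but complex III were lowest in that of day 14. Their medians in the KO BCAS library of day 7 were 0.20, 0.23, 0.21 and 0.17, and in that of day 14 they were -0.13, -0.06, -0.17 and -0.14. The 4 genes of complex II, the only complex with no subunit from mitochondrial DNA and also an enzyme of the citric acid cycle, had medians of 0.05 and 0.01 in these libraries. Complex II was lowest in the WT BCAS library of day 7, with a median deviation of -0.12 and a summed level of 512 CPM against 530 to 579 CPM in the other 7. The median of complex III was also lowest in that library, at -0.08, with 714 CPM summed in KO BCAS day 14 as its lowest sum. In WT BCAS day 7, 0 of its 8 members were above their mean. With 4 genes, a difference between complex II and the rest was not tested.

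Sdha had 369 CPM in the WT sham library, 342 in the KO sham library, 336, 363 and 370 CPM in the WT BCAS libraries of days 7, 10 and 14, and 387, 367 and 357 in the KO BCAS libraries of the same days. Sdhd, the other membrane anchor, had 51.0 and 51.4 CPM in the sham libraries (WT, KO), 46.4, 46.4 and 56.2 in WT BCAS and 51.8, 51.5 and 56.7 in KO BCAS. It was 1 of 4 members with a lower level in KO BCAS day 7 than in KO BCAS day 14, by 0.13 on the log2 scale, and the others were Sdhb, Uqcrfs1 and Cox6a1. Sdhb, which carries the iron-sulfur clusters, had 79.2 and 79.5 CPM in the sham libraries, 73.4, 82.2 and 88.0 in WT BCAS and 82.0, 84.4 and 83.4 in KO BCAS. The KO BCAS libraries lay close together in Sdhb, and in Sdhd that of day 14 was above the others. The WT BCAS library of day 7 was at or near the low end in all 3 genes.

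The largest gaps between the KO BCAS libraries of day 7 and day 14 were in small subunits. Atp5k, subunit e of ATP synthase, had 42.6 CPM on day 7 (95% Poisson interval 38.5 to 47.1) and 21.7 on day 14, a difference of 0.94 on the log2(CPM + 1) scale. Its other 6 libraries lay between 21.4 and 28.0 CPM. Uqcr11, a small subunit of complex III, had 55.3 CPM (50.6 to 60.4) on day 7 and 30.4 on day 14, with the other 6 between 38.8 and 46.3 CPM. For Atp5k the day 7 library stood alone above the rest, while for Uqcr11 both KO libraries lay outside the range of the other 6. Uqcrb, known as the ubiquinone-binding protein of complex III, had 69.0 and 41.3 CPM, and its other 6 libraries lay between 47.9 and 58.4 CPM. Ndufa3, an accessory subunit of complex I, had 54.3 and 34.0 CPM, and 32.3 in the KO sham library. Uqcrb and Ndufa3 overlap an exon on the opposite strand, and Uqcrb and Atp5k have a near-identical stretch elsewhere. The difference was 0.63 for Cox7b, 0.62 for Cox7c and 0.60 for Cox5b, which belong to complex IV, and 0.60 for Ndufv3, an accessory subunit of complex I.

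Over all members the difference between the 2 libraries had a median of 0.30 and was above 0 for 73 of 77. Ndufs1, the largest iron-sulfur subunit, had 138 CPM on day 7 and 136 on day 14. Across the 77 members the difference went with transcript length, with r = -0.41 and rho = -0.41 as a description, the points sharing the same 2 libraries. The median was 0.36 for the 39 members with transcripts of up to 782 bases and 0.22 for the 38 longer ones. All genes averaging 5 CPM or more were also split into 5 bins by transcript length, the shortest of which holds 68 members. From the shortest to the longest bin, the median deviation went from 0.04 to -0.02 in KO BCAS day 7. In KO BCAS day 14 it went from -0.02 to 0.01. The part of transcript length was not tested, and the members' median deviations under a correction for length are given among the alternatives.

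**Figure D3:**
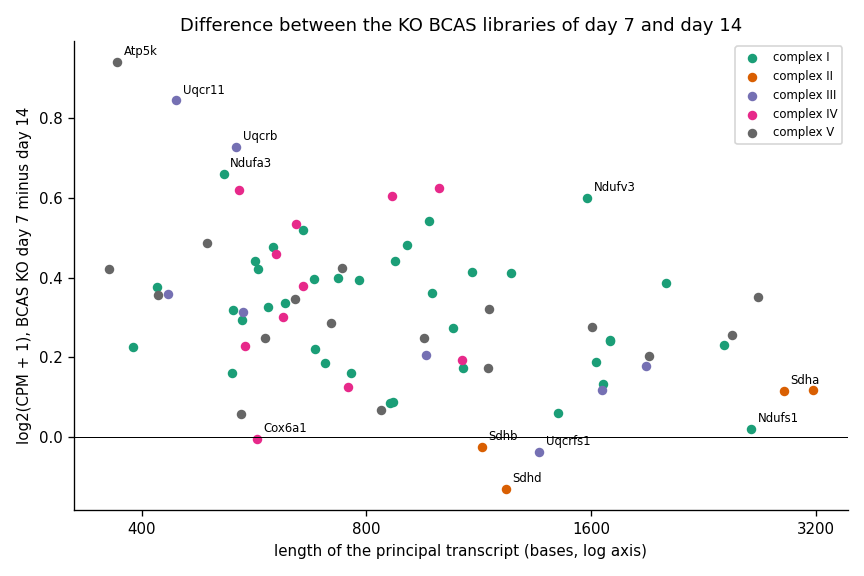
Each point is 1 member, with the length of its principal transcript in bases on a log axis and, on the vertical axis, the difference in log2(CPM + 1) between the KO BCAS libraries of day 7 and day 14 (1 mouse each). Atp5k at 0.94 and Uqcr11 at 0.84 are highest, and Sdhd at -0.13 is lowest.

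Whether the label changed respiratory chain expression after BCAS was asked by comparing the 3 WT with the 3 KO libraries after BCAS. No member was called: 0 of 77 had an unadjusted limma p under 0.05 in either direction, against 4.2% of all 18123 genes tested. This rule is meant wherever a gene is said to be called or to pass below. The median log2 fold change (WT minus KO) was -0.02, with 26 members above 0, and the median over all genes was 0.00. The WT and KO libraries overlapped for every member, while they did not overlap for 9.21% of all genes. The smallest p was that of Ndufb3, an accessory subunit in the membrane arm of complex I, which had 28.5, 28.9 and 32.8 CPM in WT and 36.7, 34.8 and 32.8 in KO. The groups met at the value of day 14. Its log2 fold change was -0.21 (SE 0.10, 95% interval -0.42 to 0.01, limma p = 0.060, adjusted p = 0.98; exact permutation p = 0.20, two-sided, where 0.10 is the smallest that 3 against 3 allows).

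Atp5l, subunit g of ATP synthase, had 52.7, 51.3 and 56.3 CPM in WT and 63.0, 54.5 and 60.4 in KO (limma log2 fold change -0.15, adjusted p = 0.98; exact permutation p = 0.20), and 9 other genes hold a near-identical stretch. Atp5g3 had 103, 90.4 and 110 CPM in WT and 120, 128 and 97.9 in KO, a limma log2 fold change of -0.18 (adjusted p = 0.98; exact permutation p = 0.30). The groups overlapped in both genes. The 95% interval lay within ±0.5, that is within 1.41-fold in either direction, for 74 of the 77 members, and the median half-width was 0.22. Intervals of this width leave room for changes of about the median half-width in single genes. Sdha had an interval of -0.23 to 0.12, Ndufs1 of -0.23 to 0.08, and Uqcr11 of -0.45 to 0.35.

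The same label difference, read by day, went in opposite directions at the ends of the series. On day 7 the WT library was below the KO library for 73 of 77 members, with a median difference of -0.21. On day 10 it was above for 42 and below for 35, with a median of 0.02. On day 14 it was above for 65, with a median of 0.12, and in the sham libraries it was above for 61, with a median of 0.09. The corresponding medians over all genes were 0.01, 0.00, -0.00 and 0.00. Each of these is 1 mouse against 1 mouse, so no test was made. The fold change over the 3 days depended on them: the median over members was 0.07 without KO BCAS day 7 and -0.09 without KO BCAS day 14. Without the latter, limma called 4 members, all lower in WT: Ndufa2, Atp5g3, Uqcr11 and Ndufa3, when it called 4.65% of all genes. Without the former it called 1, Cox7c, at a log2 fold change of 0.28, and 3.39% of all genes.

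**Figure D4:**
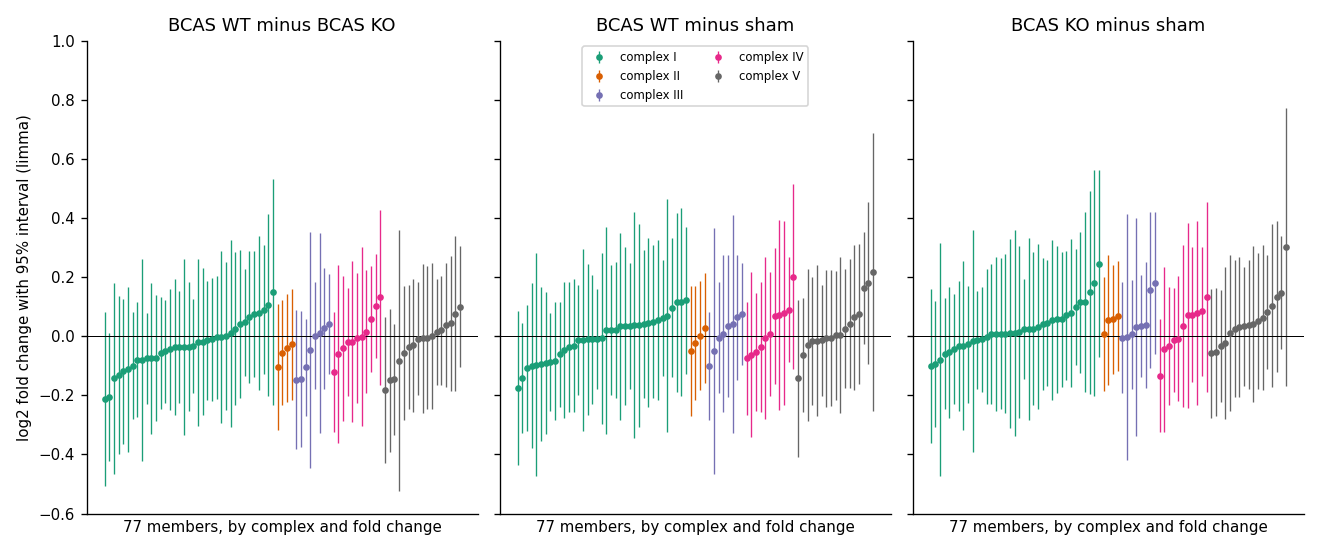
Each point is the limma log2 fold change of 1 member with its 95% interval, coloured by complex, for 3 WT against 3 KO libraries after BCAS and for each set of 3 against the 2 sham libraries. The intervals against sham come from 1 fit of all 8 libraries. The intervals of all 77 members hold 0 in each panel.

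To ask whether BCAS itself moved these genes, each operated group was compared with the 2 sham libraries, 1 of each label, which both comparisons share. Both came from 1 fit of all 8 libraries in 3 groups. Their limma p-values and intervals therefore also draw on the spread of the operated group not compared. In WT, limma called 0 of the 77 members, against 5.45% of all genes, and the median log2 fold change (WT BCAS minus sham) was 0.00, with 40 members above 0. Operated and sham libraries did not overlap for 11 members (14.3%), 7 of them higher and 4 lower after BCAS, against 19.9% of all genes. Atp5c1, the gamma subunit that turns in the F1 head, had 154 and 141 CPM in sham (WT, KO) and 163, 177 and 155 in WT BCAS, a log2 fold change of 0.16 (95% interval -0.03 to 0.35, limma p = 0.087, adjusted p = 0.91; exact permutation p = 0.20, the smallest that 3 against 2 allows). Ndufv1, which binds the flavin and oxidizes NADH, had 120 CPM in each sham library and 101, 111 and 114 in WT BCAS, a log2 fold change of -0.14 (limma adjusted p = 0.92; exact permutation p = 0.20). Ndufb10 of the membrane arm of complex I had 76.7 and 75.3 CPM in sham and 63.3, 67.0 and 71.3 in WT BCAS, a log2 fold change of -0.18 (limma adjusted p = 0.93; exact permutation p = 0.20). In these 3 genes every operated library was on 1 side of both sham libraries, but none passed the test.

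In KO, limma again called 0 of 77, against 2.74% of all genes. The median log2 fold change (KO BCAS minus sham) was 0.03, with 53 members above 0. The groups did not overlap for 4 members (5.19%), against 18.6% of all genes, and all 4 were higher after BCAS: Atp5c1, Uqcr10, Sdhb and Sdhd. Atp5c1 had 176, 159 and 155 CPM (sham 154 and 141), a log2 fold change of 0.15 (95% interval -0.04 to 0.34; exact permutation p = 0.20). Uqcr10, a small subunit of complex III, had 77.1, 60.5 and 59.9 CPM (sham 58.8 and 56.6), a log2 fold change of 0.18 (95% interval -0.06 to 0.42; exact permutation p = 0.20). Ndufa2, an accessory subunit near the NADH-oxidizing module, had 36.8, 37.1 and 27.3 CPM against 26.0 and 30.2 in sham, a log2 fold change of 0.25 (95% interval -0.07 to 0.56; exact permutation p = 0.40), with overlapping groups. Without KO BCAS day 14, 4 members passed, all higher than sham (Ndufa2, Atp5k, Cox5b and Ndufa3), as did 4.06% of all genes. Without KO BCAS day 7, 1 passed, Ndufb10, which was lower, as did 1.79% of all genes. The 95% interval lay within ±0.5 for 75 members in WT and 74 in KO.

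Over all 4 WT against all 4 KO libraries, limma called 0 of 77 members, against 3.94% of all genes, and the groups did not overlap for 0 members, against 2.46% of all genes. The median log2 fold change was 0.01, and the 95% interval lay within ±0.5 for all 77. The smallest p was that of Ndufa2, with 26.0, 31.2, 26.1 and 29.0 CPM in WT (sham, then days 7, 10 and 14) and 30.2, 36.8, 37.1 and 27.3 in KO, a log2 fold change of -0.21 (limma p = 0.075; exact permutation p = 0.14). Ndufa2 overlaps an exon of Tmco6 on the opposite strand. Cox4i1 differed by 0.09 (exact permutation p = 0.086), at 405 ± 9.76 CPM in WT and 380.3 ± 17.0 in KO (SD, n = 4). Without KO BCAS day 7, 8 members passed, all higher in WT, among them Cox7c (0.25), Ndufa12 (0.21), Ndufv3 (0.21) and Uqcrb (0.21), and 4.54% of all genes passed.

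The change with BCAS was also compared between the labels, with 1 sham library behind each side. By limma, 0 of the 77 members passed, against 1.5% of all genes. The median difference of changes (WT minus KO) was -0.10, with 13 members above 0 and 64 below, and the median over all genes was 0.00. The direction was shared by complexes I (-0.12), II (-0.06), III (-0.19), IV (-0.04) and V (-0.11). Because each label has 1 sham mouse, all 77 values carry the same 2 sham libraries, in which WT was above KO for 61 members. Ndufa1, an X-linked accessory subunit of complex I, had 28.1 CPM in the WT sham library and 23.7, 24.4 and 25.8 after BCAS, and 20.4 CPM in the KO sham library and 29.1, 29.5 and 22.2 after BCAS. Its difference of changes was -0.55 (95% interval -1.11 to 0.01). For Ndufb3 it was -0.41 (95% interval -0.85 to 0.02) and for Ndufa3 -0.59 (-1.23 to 0.06). The 95% interval lay within ±0.5 for 22 members, and the median half-width was 0.45, so the design was imprecise for this question.

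On the recovered reads, the quasi-likelihood test of edgeR called 0 members in each of the 4 group comparisons and 1, Ndufa1, in the comparison of changes. DESeq2 called 0 in all 5. Of all genes, edgeR called 2.85% to 6.78% in the group comparisons and 1.85% in the comparison of changes. DESeq2 called 1.40% to 4.54% and 0.541%.

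The members stood beside related gene lists as follows. All 48 assembly factors, the proteins that build the complexes without staying in them, were tested, and their median deviation stayed between -0.04 and 0.05 in every library, including 0.05 in KO BCAS day 7. Ndufaf7, an assembly factor of complex I, was lower in WT BCAS than in sham (log2 fold change -0.21, limma adjusted p = 0.91; exact permutation p = 0.20), and Coa3, an assembly factor of complex IV, was lower in WT than in KO over all libraries (-0.16, limma adjusted p = 0.99; exact permutation p = 0.029). Each was the only 1 of the 48 that limma called in its comparison (2.08%), against 5.45% and 3.94% of all genes. The exact p of 0.029 is the smallest that 4 against 4 allows. The other assembly factors did not pass in any comparison. Of 17 regulators of mitochondrial gene expression, 0 passed in the 4 group comparisons. Ppargc1a, a coactivator of mitochondrial biogenesis, lay between 51.9 and 57.0 CPM in the 8 libraries, and Nrf1 between 17.5 and 23.7 CPM. Esrra, a nuclear receptor of the same programme, passed in the comparison of changes (-0.45, 95% interval -0.87 to -0.04). Its level was 48.5 CPM in WT sham and 39.8 in KO sham, 43.8, 41.8 and 45.8 in WT BCAS and 50.9, 53.8 and 44.3 in KO BCAS.

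The 17 enzymes of the citric acid cycle had a median deviation of 0.10 in KO BCAS day 7 and -0.05 in KO BCAS day 14, and the lowest value was -0.10 in WT BCAS day 7. The 17 glycolytic enzymes had 0.08 and -0.07 in the KO libraries of days 7 and 14. In KO BCAS day 7, 14 of the 17 citric acid cycle enzymes and 16 of the 17 glycolytic enzymes were above their mean. Of both lists, 0 genes passed in any comparison. A further list of 9 respiratory chain symbols, which includes synonyms, held 4 measured genes that are not members, with a median of 0.17 in KO BCAS day 7. They included Ndufab1, the acyl carrier protein of complex I, which was lower in WT over all libraries (-0.17, limma adjusted p = 0.99; exact permutation p = 0.057, overlapping groups).

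Cytosolic ribosomal proteins had another profile. The median deviation of these 81 genes was 0.23 in WT BCAS day 7, where the respiratory chain median was -0.03, and 0.04 in KO BCAS day 7, where it was 0.19. All 81 were above their mean in WT BCAS day 7, and 32 of the 77 members were. Of the ribosomal protein genes, 7 were called higher in WT than in KO after BCAS (8.64%), and 4.2% of all genes were called in either direction. Of the 81, 68 had their highest level in WT BCAS day 7. In WT BCAS day 14 their median deviation was -0.09, as it was in KO BCAS day 10.

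**Figure D5:**
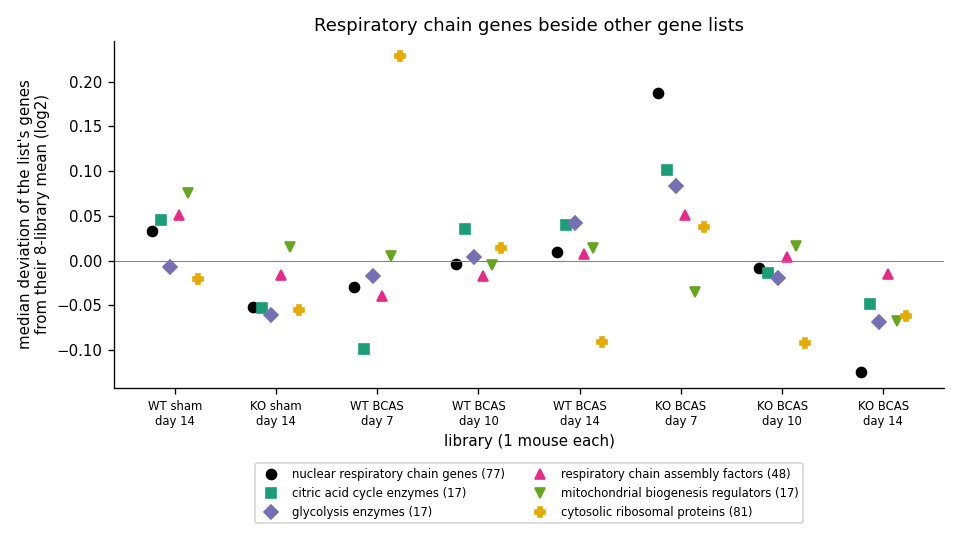
Symbols give, for each library (1 mouse), the median over the genes of a list of log2(CPM + 1) minus the gene's 8-library mean, with the number of genes tested in brackets. The respiratory chain is highest in KO BCAS day 7 (0.19) and ribosomal proteins in WT BCAS day 7 (0.23).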

How the data were processed

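The data were 8 RNA-seq libraries of corpus callosum, 1 mouse each. Per the labels and the study's methods, the authors selected polyadenylated RNA, prepared libraries with a kit that does not mark strand, aligned reads to mm10 (GRCm38) with HISAT and counted them per gene with subread. The deposited signal is CPM by edgeR's effective library size, computed by the authors. The annotation and strand setting of the counting are not given in the sources used here. All values (100%, within 0.02 of a whole number) were integer multiples of what 1 read is worth, so reads were recovered, 7896071 to 12952093 per library.

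Libraries were grouped by label, operation and day. The members and lists were chosen with earlier results of these data known. limma 3.58.1 (trend) was fitted to log2(CPM + 1) of the 18123 genes averaging 0.1 CPM or more, with Benjamini-Hochberg adjustment over all of them, and fold changes are on that scale, which understates those of low genes. Genes were called at an unadjusted p under 0.05. The study's methods give that threshold without naming an adjustment. In WT against KO after BCAS and in the comparison of changes, p-values measure the spread between mice of different days. In the comparisons with sham, taken from 1 fit of all 8 libraries, the spread also includes that between the WT and the KO sham mouse. The spread within the operated group not compared enters there too. Over all WT against all KO, it also includes that between sham and operated mice of a label. Named were, per complex, the highest and lowest member per kilobase, the members with p under 0.05 or else the 3 smallest p per comparison, the catalytic subunits and isoform pairs, those nearest the limit of 5 CPM and those with the extreme coefficients of variation. Others were named after their values were seen. Single genes had an exact permutation test (SciPy 1.17.1). Lengths, positions and overlaps came from GENCODE M21, and near-identical stretches from BLAST 2.17.0. Scripts were tested on simulated data. Alternatives were another pseudocount, filters, scaling, length correction, edgeR 4.0.16 and DESeq2 1.42.0 on the reads, other member sets, a replicate block and leaving out each library. Poisson intervals and the limit of 3 reads cover counting error only. Subunits encoded in mitochondrial DNA were not analysed here. Values of 1 member are not reported here by name.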

Additional observations from a re-analysis of the deposited data

Results flagged for a closer look

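The set of 4 libraries of each label was screened for a library far from the other 3, over the 77 members, the sums of the 5 complexes and the median over members. Of 166 such sets, 10 were marked, and chance marks about 1 in 20. Among the results given above, 4 were marked. The summed level of complex III in WT BCAS day 7 was 724 CPM, against 767 in WT sham and 771 and 770 in WT BCAS days 10 and 14. Ndufa4 in KO BCAS day 7 was at 169.9 CPM, against 136.7 in KO sham and 135.5 and 136.1 in KO BCAS days 10 and 14. Ndufs8, an iron-sulfur subunit of the quinone module of complex I, was at 42.0 CPM in WT sham, against 49.7, 50.03 and 48.9 in the WT BCAS libraries. Sdhd in KO BCAS day 14 was at 56.7 CPM, against 51.4 in KO sham and 51.8 and 51.5 in KO BCAS days 7 and 10. In the test of a difference in the BCAS effect between the labels, 0 of the 77 members had an unadjusted limma p under 0.05, edgeR called 1 (Ndufa1) and DESeq2 called 0. Of all genes, limma called 1.5%, edgeR 1.85% and DESeq2 0.541%.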

How the results depend on the processing

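The count of 77 members called at an unadjusted limma p under 0.05, which was 0 in each comparison, stayed 0 in 51 of 57 alternatives, beside those that left out each library in turn. The 57 include smaller member sets, which only drop members from the main fit, so their count of 0 was fixed in advance. In WT against KO after BCAS it was 1 with no filter (4.62% of all genes). Over all WT against all KO it was 1 with the transcript length correction (3.90% of all genes). In the comparison of changes it was 1 with a pseudocount of 0.1, 1 with no filter, 1 with edgeR and 2 with the length correction. Of all genes, these 4 called 1.51%, 3.06%, 1.85% and 1.54%. With single libraries left out it ranged from 0 to 4 in WT against KO after BCAS, from 0 to 1 in WT BCAS against sham, from 0 to 4 in KO BCAS against sham, from 0 to 8 over all WT against all KO and from 0 to 4 in the comparison of changes, and the highest counts came without KO BCAS day 14 or KO BCAS day 7, and in WT BCAS against sham without WT BCAS day 14. Where these highest counts arose, limma called 4.65%, 11.1%, 4.06%, 4.54% and 1.81% of all genes, in the same order of comparisons. Leaving out a sham library could not be fitted in the comparison of changes, where it empties a group. The median log2 fold change of members ranged over all alternatives from -0.09 to 0.07 in WT against KO after BCAS, from -0.04 to 0.04 in WT BCAS against sham, from -0.06 to 0.09 in KO BCAS against sham, from -0.03 to 0.07 over all WT against all KO and from -0.17 to -0.02 in the comparison of changes, so its sign depended on the libraries in all but the last.

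The day was the replicate number. Same-day BCAS libraries of the 2 labels did not deviate together (correlations over 10744 genes of -0.10, 0.01 and -0.26 on days 7, 10 and 14). Each correlation rests on single mice and cannot decide whether the time after BCAS had an effect, which was not tested. With the replicate block, 0 members were called in WT against KO after BCAS (median -0.02) and 0 over all libraries (median 0.01), also with the length correction (medians -0.03 and -0.00), a fit added after seeing the data. Of all genes, the block called 3.49% and 3.78% in these comparisons, and 3.41% and 3.63% with the length correction.

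Also added after seeing the data were alternatives for the members' median level in single libraries. That of KO BCAS day 7 (0.19) lay between 0.14, with the length correction, and 0.19, and that of KO BCAS day 14 (-0.12) between -0.13 and -0.09. The 54 members without a near-identical stretch elsewhere gave 0.17 and -0.10.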
